A study of Mus musculus with 10 samples.

Results

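The genes described are 9 genes of MHC class II antigen presentation: H2-Aa, H2-Ab1, H2-Eb1, H2-DMa, H2-DMb2, H2-Oa, H2-Ob, Cd74 and Ciita. They were chosen by name, as the rows of the table of mRNA per cell whose Entrez identifier maps to these symbols, and 9 of 9 were found among the 9690 genes of the table. All lay above 0 in every library, so that no filter on low values removed any of them. The RNA came from spleen B cells sorted without stimulation. The mice were female C57BL/6J, labelled as knockout or wild type for LSD1, the histone demethylase encoded by Kdm1a. There were 2 libraries of knockout and 3 of wild-type marginal zone B cells (MZB), gated as CD21hi, CD1d+ and CD23-. There were 3 libraries of knockout and 2 of wild-type follicular B cells (FoB), gated as CD21mid, CD23+ and CD1d-. Both gates also required B220 and the absence of CD93, GL7, Thy1.1, F4/80 and CD11b. The sources used here do not give the driver of the deletion, the exons removed or the age of the mice. Nor do they say whether a group's libraries stem from separate animals, so the spread behind each p-value may be technical.

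MHC class II molecules are αβ dimers that carry peptides from internalised antigen to the cell surface, where CD4+ T cells read them. H2-Aa and H2-Ab1 encode the α and β chains of I-A, and H2-Eb1 encodes the β chain of I-E, whose α chain gene is defective in C57BL/6 mice. Cd74 encodes the invariant chain, which occupies the groove and guides new dimers to the endocytic route. H2-DMa with H2-DMb2 encodes H2-M, which exchanges the remnant of the invariant chain for peptide, and H2-Oa with H2-Ob encodes H2-O, an inhibitor of H2-M that is made in B cells. Ciita encodes a coactivator of class II genes that does not itself bind DNA. It is recruited by the factors RFX, CREB and NF-Y, which sit on the X and Y boxes of class II promoters.

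The genes H2-Oa, H2-DMa, H2-DMb2, H2-Ob, H2-Ab1, H2-Aa and H2-Eb1 lie in this order on chromosome 17 of GRCm38, the assembly of mm10, from 34092379 to 34316674. RefSeq promoter windows on GRCm38.p6 were at hand for 6 of the 9 genes, and 5 of those held the 7-base Y box TGATTGG upstream of the start. The 130 bases before the start are shown for these 5, because the same short module recurs in genes that are described side by side in the results. Capitals mark the Y box and, before it, an X box in the long form (AAC, any 2 bases, then ATGATGC) or the short form GCAAC, which overlap in H2-Ob and H2-Eb1.
H2-Aa, chr17:34287824-34287953, minus strand: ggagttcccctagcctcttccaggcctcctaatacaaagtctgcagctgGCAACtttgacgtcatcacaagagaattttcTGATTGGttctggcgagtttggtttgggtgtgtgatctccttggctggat
H2-Eb1, chr17:34305737-34305866, plus strand: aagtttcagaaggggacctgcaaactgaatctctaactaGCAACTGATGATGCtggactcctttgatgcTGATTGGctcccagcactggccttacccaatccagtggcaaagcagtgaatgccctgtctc
H2-DMb2, chr17:34145119-34145248, plus strand: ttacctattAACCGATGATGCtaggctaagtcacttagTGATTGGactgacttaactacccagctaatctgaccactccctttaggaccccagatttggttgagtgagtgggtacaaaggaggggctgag
H2-Oa, chr17:34092249-34092378, plus strand: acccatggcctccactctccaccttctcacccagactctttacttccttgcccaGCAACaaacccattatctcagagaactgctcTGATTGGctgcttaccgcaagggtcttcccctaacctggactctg
H2-Ob, chr17:34238775-34238904, plus strand: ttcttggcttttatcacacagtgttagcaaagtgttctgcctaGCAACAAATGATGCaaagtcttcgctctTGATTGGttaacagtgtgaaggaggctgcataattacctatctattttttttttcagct
The Y box began 45 bases before the start in H2-Oa, 50 in H2-Aa, 59 in H2-Ob, 61 in H2-Eb1 and 92 in H2-DMb2. Between the end of the long X form and the Y box lay 14 bases in H2-Ob, 16 in H2-Eb1 and 17 in H2-DMb2. In both H2-Aa and H2-Oa 26 bases lay between the short form, which was the match there, and the Y box. The short form ends further upstream than the long form, so gaps of the different forms cannot be compared. Of 32851 promoter windows of this table, 7.82% held the Y box on either strand, 35.2% the short X form, 2.98% the Y box with either X form and 0.0396%, or 13 windows, the long X form. H2-DMa, with 2 windows, held no match to the Y box. The forms of the motifs were chosen with these sequences in view, so the shares describe the windows and test nothing.

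The table gives mRNA per cell. Each value is a whole number of reads times a worth that falls with the length of the gene, so that levels of different genes can be compared per length, though only roughly. The recovered reads summed to 4161051 to 6711847 per library, and the 9 genes rested on 876 reads (H2-Oa in a knockout FoB library) to 37056 reads (Cd74 in a wild-type FoB library). Intervals printed here come from the spread between libraries. Kdm1a averaged 5.66 ± 0.401 mRNA per cell in knockout MZB (SD, n = 2), 7.54 ± 1.05 in wild-type MZB (SD, n = 3), 2.11 ± 0.22 in knockout FoB (SD, n = 3) and 4.96 ± 0.881 for wild-type FoB (SD, n = 2). The knockout and wild-type ranges did not overlap in either cell type, and the knockout MZB libraries kept 0.75 of the wild-type mean per cell, or 0.6 after rescaling. The deleted exons are not known here, so these values check the labels only in part. Total mRNA per cell differed between the cell types: it was 2.31 times as high in knockout MZB as in knockout FoB, and 1.75 times as high in wild-type MZB as in wild-type FoB. It was 1.27 times as high in knockout as in wild-type MZB, and 0.967 times as high in knockout as in wild-type FoB. Each result is therefore given on the per-cell scale, as deposited, and on a rescaled scale, on which libraries share 1 overall level and a value is relative to the other genes. Over all genes the median log2 difference per cell was 1.13 for knockout MZB over knockout FoB and 0.78 for wild-type MZB over wild-type FoB, against 0.00 after rescaling in both. In bulk samples, a lower level in every cell and fewer cells that express a gene cannot be told apart.

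The 2 B cell types differed in how much of their mRNA went to class II genes, while 0 of the 9 genes passed for LSD1 status in MZB (where 14% of all genes passed per cell and 5.26% rescaled) or in FoB (0.712% and 0.588%). Relative to other genes, 9 of 9 were lower in wild-type MZB than wild-type FoB, with log2 changes of -0.26 (H2-Oa) to -1.16 (Ciita), where 24.9% of all genes were lower. They made up 2.35% ± 0.00346 of all mRNA in knockout MZB (SD, n = 2), 2.29% ± 0.0876 in wild-type MZB (SD, n = 3), 3.36% ± 0.202 in knockout FoB (SD, n = 3) and 3.34% ± 0.025 for wild-type FoB (SD, n = 2). The share ran from 2.19% to 2.36% in the MZB libraries and from 3.13% to 3.51% in the FoB libraries, with no overlap. In absolute amounts per cell the means stood in the other order: their sum averaged 2668.4 ± 261.6 mRNA per cell in knockout MZB, 2039.6 ± 353.2 in wild-type MZB, 1655.6 ± 276.9 in knockout FoB and 1696.3 ± 251.7 in wild-type FoB (SD, same n). In this sum the wild-type groups overlapped, at 1638.2 to 2302.5 in wild-type MZB and 1518.4 to 1874.3 in wild-type FoB.

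The chains of the presenting molecules stood near the top of the table. H2-Aa, the I-A α chain, stood at 448 and 498 mRNA per cell in the knockout MZB libraries, 309, 433 and 402 in wild-type MZB, 316, 378 and 261 in knockout FoB, and 362 and 286 in wild-type FoB. Per cell, its knockout MZB libraries were the highest and the other groups overlapped. After rescaling it stood at 290.2 and 283 in knockout MZB, 274, 294 and 297 in wild-type MZB, 466, 495 and 418 in knockout FoB, and 454 and 450.2 in wild-type FoB. On this scale all MZB libraries lay below all FoB libraries, with the genotypes interleaved within each cell type. H2-Ab1, the I-A β chain, stood at 366 and 410.3 mRNA per cell in knockout MZB, 250.4, 353 and 340.2 in wild-type MZB, 247, 293 and 203 in knockout FoB, and 288 and 233 in wild-type FoB. H2-Eb1, the I-E β chain, stood at 261 and 298 mRNA per cell in knockout MZB, 172, 248.6 and 229 in wild-type MZB, 171, 194 and 135 in knockout FoB, and 191 and 153 in wild-type FoB. Both followed the pattern of H2-Aa on the per-cell scale. After rescaling, H2-Ab1 ran from 222 to 251 in MZB and from 324 to 384 in FoB, and H2-Eb1 from 152 to 169 in MZB and from 215 to 254 in FoB, again with no overlap between the cell types. By mean level H2-Aa ranked 4 of 9690 genes in knockout MZB and 3 in the other groups. H2-Ab1 ranked 11 in knockout MZB, 7 in wild-type MZB and 5 in both FoB groups, and H2-Eb1 34 in both MZB and 11 in both FoB groups. The H2-Aa to H2-Ab1 ratio within a library, which does not depend on the scale, stayed between 1.18 and 1.29 in all 10 libraries.

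Cd74, the invariant chain, was the highest gene of the table in all 4 groups (rank 1 of 9690). It stood at 1034 and 1218 mRNA per cell in knockout MZB, 651, 922 and 891 in wild-type MZB, 712, 788 and 557 in knockout FoB, and 754 and 621 in wild-type FoB. After rescaling it stood at 670.4 and 692 in knockout MZB, 577, 627 and 657 in wild-type MZB, 1050.0, 1033 and 892 in knockout FoB, and 946 and 979.6 in wild-type FoB. The knockout MZB libraries lay above the wild-type ones on both scales, but the difference did not pass: the log2 change was 0.47 ± 0.27 per cell (SE, adjusted p = 0.168) and 0.14 ± 0.11 rescaled (adjusted p = 0.48, limma with Benjamini-Hochberg adjustment over all genes). Cd74 lies on chromosome 18 of GRCm38, from 60803849 to 60812652, and the annotated gene overlaps the microRNA gene Mir5107 over 88 bases.

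H2-M, the peptide exchanger, was uneven in its chains. H2-DMa stood at 43.2 and 54.2 mRNA per cell in knockout MZB, 30.1, 40.2 and 36.0 in wild-type MZB, 28.9, 32.2 and 24.4 in knockout FoB, and 32.7 and 25.9 in wild-type FoB. H2-DMb2 stood at 152 and 177 mRNA per cell in knockout MZB, 106, 152 and 134 in wild-type MZB, 96.5, 106 and 82.4 in knockout FoB, and 112 and 93.7 in wild-type FoB. After rescaling, H2-DMa ran from 26.5 to 30.8 in MZB and from 39.1 to 42.7 in FoB, and H2-DMb2 from 94.0 to 103 in MZB and from 132 to 148 in FoB, with no overlap. The α chain stood at 0.265 to 0.306 of the H2-DMb2 level over the 10 libraries. The second β chain gene, H2-DMb1, which is near-identical in sequence, averaged 66.7 ± 7.54 mRNA per cell in knockout MZB, 48.1 ± 8.11 in wild-type MZB, 34.3 ± 3.5 in knockout FoB and 39.7 ± 3.15 in wild-type FoB (SD, n = 2, 3, 3 and 2). The sources used here do not say how reads that match both copies were counted, so the split between the 2 β genes is uncertain. H2-DMa overlaps Brd2 over 3122 bases in the annotation, and whether strand was used in counting is also not stated.

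H2-O, the inhibitor of H2-M, combines an α chain gene with the smallest rescaled difference between the wild-type cell types among the 9 genes and a β chain gene with the second largest. H2-Oa stood at 51.2 and 62.2 mRNA per cell in knockout MZB, 33.4, 47.2 and 43.7 in wild-type MZB, 24.5, 30.5 and 21.4 in knockout FoB, and 31.0 and 22.8 in wild-type FoB. It was the only one of the 9 genes whose wild-type MZB libraries all lay above its wild-type FoB libraries per cell, which held for 84.5% of all genes. After rescaling it stood at 33.2 and 35.3 in knockout MZB, 29.6, 32.1 and 32.2 in wild-type MZB, 36.2, 39.9 and 34.2 in knockout FoB, and 38.9 and 36.0 in wild-type FoB. Here the wild-type MZB libraries were the lowest, and the knockout groups overlapped. H2-Ob stood at 112 and 116 mRNA per cell in knockout MZB, 73.8, 92.5 and 87.8 in wild-type MZB, 76.4, 75.2 and 65.3 in knockout FoB, and 84.2 and 69.0 in wild-type FoB. Its knockout MZB libraries lay above all others and the other groups overlapped. After rescaling H2-Ob ran from 62.9 to 72.8 in MZB and from 98.5 to 113 in FoB. In each MZB library H2-Oa lay above H2-DMa per cell, and in each FoB library below it, an order noted after the values had been seen. H2-Oa overlaps the antisense gene BC051537 over its whole length, 2856 bases. That gene stood at 0.26 to 1.35 mRNA per cell, and its log2 change in wild-type MZB against wild-type FoB was 0.94 ± 0.19 per cell (SE, adjusted p = 1.08e-05) and 0.39 ± 0.16 rescaled (adjusted p = 0.0564).

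Ciita, the coactivator on chromosome 16 (GRCm38, 10480014 to 10531064), was the least abundant of the 9 genes and the one that set the cell types furthest apart. It stood at 16.6 and 19.9 mRNA per cell in knockout MZB, 11.8, 15.1 and 14.7 in wild-type MZB, 17.4, 17.2 and 13.8 in knockout FoB, and 19.3 and 14.98 in wild-type FoB. Per cell the cell types overlapped, although MZB hold more mRNA. After rescaling it stood at 10.8 and 11.3 in knockout MZB, 10.5, 10.3 and 10.8 in wild-type MZB, 25.7, 22.6 and 22.0 in knockout FoB, and 24.2 and 23.6 in wild-type FoB. On that scale the highest MZB library, at 11.3, lay far below the lowest FoB library, at 22.0, and the genotypes lay side by side. Ciita ranked 1147 of 9690 genes in knockout MZB, 1214 in wild-type MZB, 467 in knockout FoB and 458 in wild-type FoB.

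**Figure D1:**
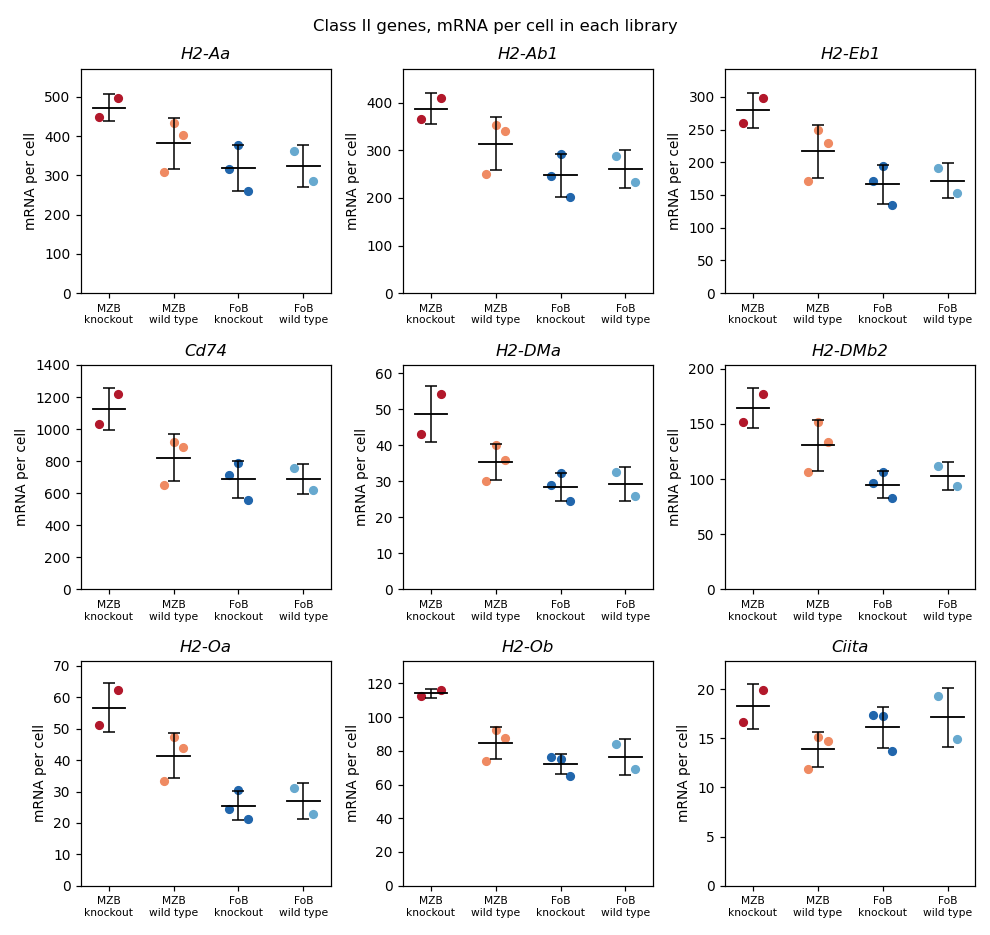
Each panel shows 1 class II gene as mRNA per cell in the 4 groups, with a point per library and the mean ± SD in black. The knockout MZB points of Cd74, at 1034 and 1218, lie above all other libraries, while those of Ciita, at 16.6 and 19.9, overlap the FoB points.

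**Figure D2:**
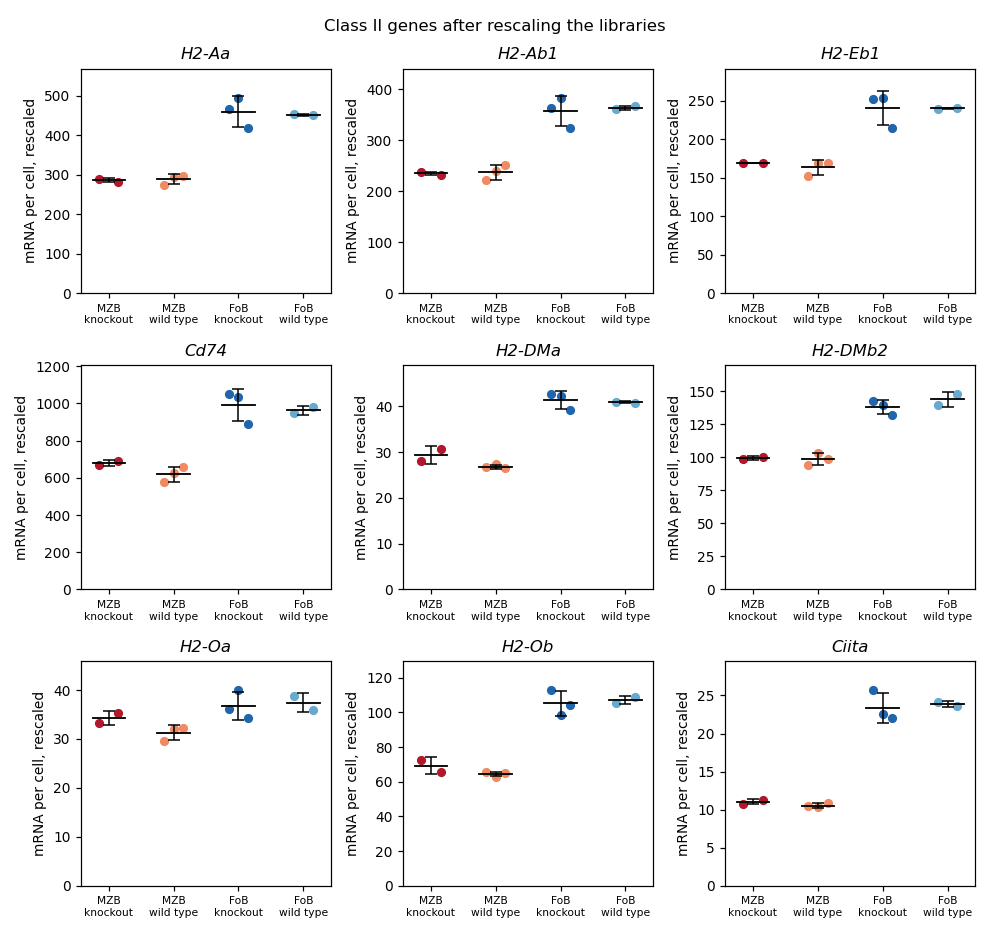
The same panels on the rescaled scale, with a point per library and the mean ± SD in black. MZB points lie below FoB points in all panels except that of H2-Oa, and knockout and wild-type points lie close together within a cell type.

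The comparison of the wild-type cell types shows how MZB and FoB differ without the deletion. Relative to other genes, 9 of 9 genes were lower in wild-type MZB than wild-type FoB, where 49.9% of all genes passed the test and 24.9% passed as lower. Ciita fell by 1.16 ± 0.07 on the log2 rescaled scale (SE, adjusted p = 3.73e-07), to 0.44 of the wild-type FoB level. H2-Ob followed at -0.73 ± 0.08 (adjusted p = 1.86e-05), H2-Aa at -0.65 ± 0.09 (adjusted p = 0.000195), Cd74 at -0.64 ± 0.11 (adjusted p = 0.000675) and H2-Ab1 at -0.62 ± 0.09 (adjusted p = 0.000301). H2-DMa stood at -0.60, H2-Eb1 at -0.56 and H2-DMb2 at -0.54, all past the test, and H2-Oa had the smallest change at -0.26 ± 0.08 (adjusted p = 0.0205). The median of the 9 was -0.62, against 0.00 over all genes. All 9 genes had wild-type MZB libraries below all wild-type FoB libraries, which held for 34.8% of all genes. The H2-Oa call was lost when library 1 of wild-type MZB was left out (-0.21, adjusted p = 0.0726) and when library 1 of wild-type FoB was (-0.20, adjusted p = 0.164).

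Per cell, most of the 9 genes did not pass. Of the 9, only H2-Oa passed, at 0.62 ± 0.21 higher in wild-type MZB on the log2 scale (SE, adjusted p = 0.00625, limma), where 85.9% of all genes passed and 84.2% passed as higher. The other 8 ran from -0.29 ± 0.2 for Ciita (adjusted p = 0.16) to 0.34 ± 0.23 for H2-DMb2 (adjusted p = 0.154), and the median of the 9 was 0.26 against 0.78 for all genes. The direction of H2-Oa thus depended on the scale: higher per cell, lower relative to other genes. The count of 1 became 3 when library 1 of wild-type MZB was left out, with H2-DMb2 and H2-Eb1 at 0.48 each, and 0 when library 2 of wild-type FoB was, where H2-Oa stood at 0.40 (adjusted p = 0.171).

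The knockout libraries give the same contrast between cell types, without a library in common with the comparison above. The estimate of spread and the rescaling were made over all libraries together, so the 2 comparisons are not fully separate. Relative to other genes, 8 of the 9 genes were lower in knockout MZB than in knockout FoB, where 35.2% of all genes passed and 17% passed as lower. Ciita again had the largest change, at -1.06 ± 0.07 (SE, adjusted p = 1.21e-06, limma, rescaled log2), and H2-Aa stood at -0.68, H2-Ab1 and H2-Ob at -0.60, Cd74 at -0.54, H2-Eb1 at -0.50, H2-DMa at -0.49 and H2-DMb2 at -0.47. H2-Oa stood at -0.10 ± 0.08 and did not pass (adjusted p = 0.367). Per cell, 8 of the 9 were higher in knockout MZB, where 97.7% of all genes passed and 97.3% passed as higher. No overlap between the cell types was seen for 8 genes per cell, all higher in knockout MZB (97.5% of all genes), and for 8 rescaled, all lower (28.4%). The per-cell changes that passed ranged from 0.58 ± 0.25 for H2-Aa (adjusted p = 0.0221) to 1.16 ± 0.21 for H2-Oa (adjusted p = 7.3e-07), and Ciita did not pass at 0.18 ± 0.2 (adjusted p = 0.378). When library 2 of knockout MZB was left out, 5 passed per cell, and Cd74, H2-Aa and H2-Ab1 were lost.

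**Figure D3:**
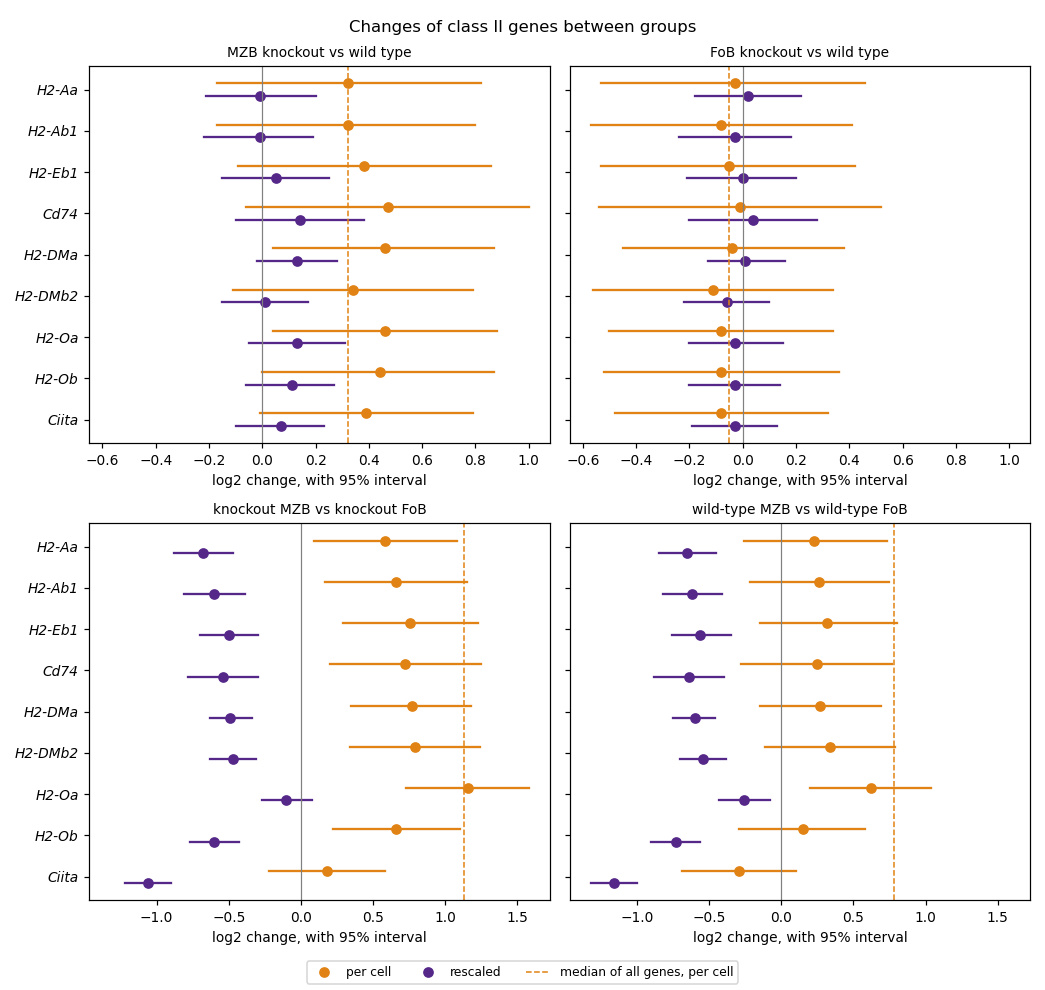
Log2 changes of the 9 genes with their 95% intervals in 4 comparisons, per cell in orange and rescaled in purple, with the median of all genes per cell as a dashed line. In the lower panels the rescaled changes lie left of 0, with Ciita furthest left at -1.06 and -1.16, and in the upper panels every rescaled interval includes 0.

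In MZB, the question was whether LSD1 status changed class II expression, and 0 of the 9 genes passed on either scale. Per cell, the log2 changes in knockout against wild-type MZB ran from 0.32 (H2-Aa and H2-Ab1) to 0.47 (Cd74), beside a median of 0.32 over all genes. At an unadjusted p under 0.05 there were 2 genes, H2-DMa at 0.46 ± 0.21 (SE, adjusted p = 0.102) and H2-Oa at 0.46 ± 0.21 (adjusted p = 0.106). The knockout libraries lay above all wild-type libraries for 8 of the 9 genes, H2-DMb2 being the exception, which held for 56.9% of all genes. After rescaling the changes ran from -0.01 to 0.14, with 95% intervals that together span -0.22 to 0.38. On this scale 0 of the 9 had an unadjusted p under 0.05. Limma voom on the recovered reads called 0 of the 9 as well, and 1090 of all 9690 genes. Rescaled, the knockout libraries lay above the wild-type ones for 4 genes, which held for 24.2% of all genes: Cd74, H2-DMa, H2-Oa and H2-Ob.

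In FoB, 0 of the 9 genes passed as well. The log2 changes in knockout against wild-type FoB ran from -0.11 (H2-DMb2) to -0.01 (Cd74) per cell, and from -0.06 (H2-DMb2) to 0.04 (Cd74) after rescaling. The rescaled 95% intervals together span -0.24 to 0.28. By limma, 0 of the 9 had an unadjusted p under 0.05 on either scale. Limma voom called 0 of the 9, and 105 of all 9690 genes. The knockout and wild-type libraries overlapped for 9 of the 9 genes on both scales. Over all genes, knockout libraries lay wholly above wild-type ones for 5.09% and wholly below for 6.8% per cell, and for 14.9% and 16.3% rescaled. The difference between the knockout effects, MZB minus FoB, passed for 0 of the 9 genes (0 at an unadjusted p under 0.05 on either scale, and 0 by limma voom), where 2.34% of all genes passed per cell and 0.31% after rescaling. It ran from 0.35 (H2-Aa) to 0.54 (H2-Oa) per cell and from -0.03 (H2-Aa) to 0.16 (H2-Oa) after rescaling.

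Some markers of other cell types rose with LSD1 knockout in MZB, where 13.3% of all genes rose per cell and 3.36% rescaled. Of 10 macrophage and monocyte markers 4 were in the table, and they summed to 45.5 to 52.5 mRNA per cell in knockout MZB against 23.6 to 31.7 in wild-type MZB, or 29.5 to 29.8 against 19.0 to 23.4 rescaled, and 3 of the 4 rose on both scales. In FoB they summed to 6.08 to 6.47 in knockout and 2.11 to 3.17 in wild-type cells. There 2 rose per cell and 3 rescaled (0.712% and 0.588% of all genes passed). Most of the MZB sums was Mpeg1, at 37.9 and 42.1 per cell in knockout MZB and 20.5, 25.3 and 27.3 in wild-type MZB. Mpeg1 was itself higher in wild-type MZB than wild-type FoB, with a log2 change of 4.11 ± 0.19 per cell (SE). Of 10 dendritic cell markers 2 were in the table, Flt3 and Cst3, which summed to 19.6 to 26.4 in knockout MZB, 10.6 to 13.9 in wild-type MZB, 10.3 to 15.5 in knockout FoB and 10.1 to 12.6 in wild-type FoB. Most of this sum was Cst3, at 17.6 and 24.1 in knockout MZB. Both genes rose in knockout MZB on both scales, and 1 of them in knockout FoB. Defining markers such as Itgax, Zbtb46, Csf1r and Adgre1 were on the lists but not in the table, whose gene filter is not stated. Of the 8 T cell markers 2 were in the table, Lck and Cd2, which summed to 41.6 to 42.9 per cell in knockout MZB and 24.8 to 37.1 in wild-type MZB, and overlapped rescaled, at 24.3 to 27.0 against 22.0 to 25.2. Lck rose on both scales and Cd2, at 0.38 ± 0.21 per cell (adjusted p = 0.159) and 0.05 ± 0.11 rescaled (adjusted p = 0.818), did not pass. The single NK cell marker in the table, Prf1, stood at 0.00 per cell (adjusted p = 0.988) and -0.25 rescaled (adjusted p = 0.464), and 0 of 2 plasma cell markers, Xbp1 and Irf4, passed on either scale by limma. Follicular markers were also higher in knockout MZB, at 142 to 163 against 72.1 to 105 in wild-type MZB, and 207 to 251 in knockout FoB against 202 to 261 in wild-type FoB. In MZB, 6 of these 7 genes rose per cell and 4 rescaled, and 3 of the 8 marginal zone markers fell rescaled, where 1.9% of all genes fell. The part of these genes in the class II values was not tested. All 8 B cell markers were in the table, and the marginal zone list summed to 565 to 757 in the MZB and 81.0 to 109.6 in the FoB libraries, as the gates would have it.

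Ratios within a library are free of the scale, and 2 of the 7 examined had no overlap between the cell types. H2-Oa over H2-Ob stood at 0.456 and 0.537 in knockout MZB, 0.452, 0.511 and 0.498 in wild-type MZB, 0.321, 0.405 and 0.327 in knockout FoB, and 0.368 and 0.331 in wild-type FoB. So the α chain of H2-O was the more plentiful relative to its partner in each MZB library. Ciita over H2-Ab1 stood at 0.046 and 0.048 in knockout MZB, 0.047, 0.043 and 0.043 in wild-type MZB, 0.07, 0.059 and 0.068 in knockout FoB, and 0.067 and 0.064 in wild-type FoB. Each MZB library held less coactivator mRNA per I-A β mRNA than any FoB library. For pairs of chains, geometric means were used. The H2-O pair over the H2-M pair (H2-DMa and H2-DMb2) ran from 0.845 to 0.936 in MZB and from 0.806 to 0.846 in FoB. With sums of the chains in place of geometric means, chosen after seeing the data, it ran from 0.727 to 0.839 in MZB, a range that holds the whole FoB range of 0.762 to 0.811. Cd74 over the geometric mean of the I-A chains was 2.56 and 2.69 in knockout MZB, above 2.34, 2.36 and 2.41 in wild-type MZB. In FoB this ratio overlapped, at 2.55, 2.37 and 2.42 in knockout and 2.33 and 2.41 in wild-type cells. No test was made on these ratios.

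**Figure D4:**
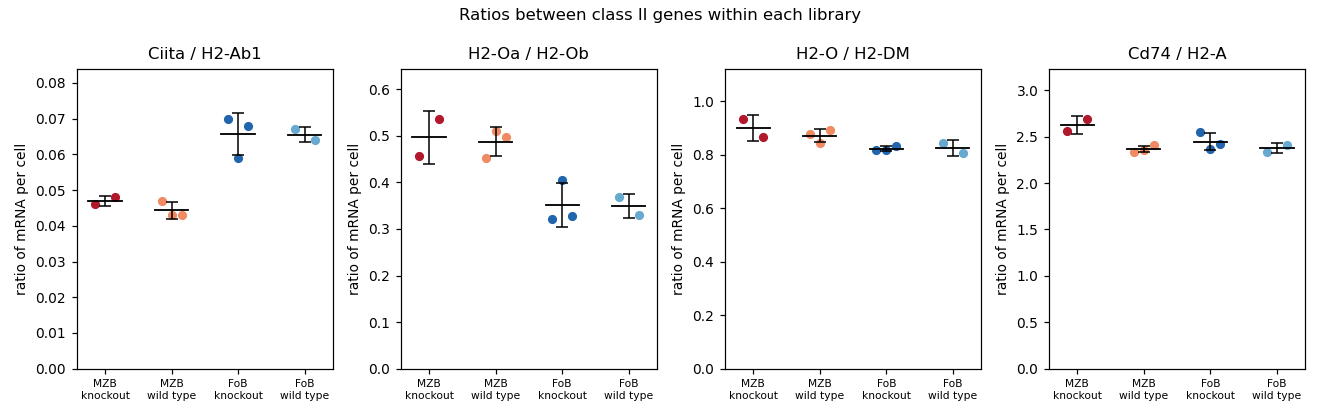
Ratios of mRNA per cell between class II genes within each library, with a point per library and the mean ± SD in black; H2-A stands for the geometric mean of H2-Aa and H2-Ab1, H2-O for that of H2-Oa and H2-Ob, and H2-DM for that of H2-DMa and H2-DMb2. Ciita over H2-Ab1 is lower and H2-Oa over H2-Ob higher in every MZB library than in any FoB library.

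The DNA-binding factors of the class II enhanceosome gave few calls between the wild-type cell types after rescaling and most per cell. Of the 7 genes Rfx5, Rfxank, Rfxap, Creb1, Nfya, Nfyb and Nfyc, 0 were higher and 1 was lower in wild-type MZB than wild-type FoB after rescaling, where 25% of all genes were higher and 24.9% lower: Nfya at -0.65 ± 0.07 (SE, adjusted p = 1.96e-05, limma). Rfx5, the large RFX subunit, stood at 0.10 ± 0.08 (adjusted p = 0.319). Per cell, 6 of the 7 were higher, where 84.2% of all genes were. For LSD1 status 0 of the 7 passed in MZB or FoB on either scale, which does not show that their levels were equal.

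Regulators that act on the Ciita gene made a list of 11, of which 10 were in the table, and in wild-type MZB against wild-type FoB 1 was higher and 6 were lower after rescaling, with a median of -0.35, beside 25% of all genes higher and 24.9% lower. Per cell, 6 of the 10 were higher and 1 was lower, where 84.2% of all genes were higher. Those that passed in the same direction on both scales were Bcl6 and Irf4. Bcl6, a repressor that the germinal centre programme requires, stood at 2.60, 3.05 and 2.60 mRNA per cell in wild-type MZB, against 10.6 and 7.18 in wild-type FoB. Its log2 change was -1.57 ± 0.19 per cell (SE, adjusted p = 2.23e-11) and -2.39 ± 0.09 rescaled (adjusted p = 1.04e-08). Irf4, an interferon regulatory factor of activated B cells, was higher in wild-type MZB by 1.32 ± 0.2 per cell (adjusted p = 1.36e-08) and 0.46 ± 0.08 rescaled (adjusted p = 0.000615). After rescaling, Irf8 at -0.82, Spi1 at -0.64, Irf1 at -0.52, Tcf3 at -0.42 and Pax5 at -0.29 also passed, while Pax5 and Tcf3 passed in the other direction per cell, at 0.59 and 0.45. For LSD1 status in MZB, 4 of the 10 rose per cell, as did 13.3% of all genes, and 2 rescaled, as did 3.36%, namely Bcl6 and Irf1. Bcl6 stood at 5.12 and 5.75 mRNA per cell in knockout MZB, a log2 change of 0.91 ± 0.19 per cell (adjusted p = 0.000361) and 0.58 ± 0.09 rescaled (adjusted p = 0.0057). Irf1, a factor of the interferon response, stood at 15.3 and 20.8 in knockout MZB against 8.95, 10.9 and 10.99 in wild-type MZB, a change of 0.79 ± 0.2 per cell (adjusted p = 0.00386) and 0.46 ± 0.09 rescaled (adjusted p = 0.014). In FoB 0 of the 10 passed for LSD1 status on either scale. For Bcl6 the difference between the knockout effects itself passed, at 1.16 ± 0.27 per cell (adjusted p = 0.00703) and 0.78 ± 0.13 rescaled (adjusted p = 0.0457).

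The next list holds endosomal proteases and cofactors that trim the invariant chain and antigen, and beside them Psap and the protease inhibitor gene Cst3. Of its 12 genes 11 were in the table, and after rescaling 5 were higher and 2 lower in wild-type MZB than wild-type FoB, beside 25% of all genes higher and 24.9% lower, with a median of 0.17. Ctsb, the protease cathepsin B, stood at 9.12, 13.1 and 10.7 mRNA per cell in wild-type MZB, against 3.33 and 2.47 in wild-type FoB, a log2 change of 1.82 ± 0.2 per cell (SE, adjusted p = 2.05e-13) and 0.99 ± 0.1 rescaled (adjusted p = 1.73e-05). Psap, the precursor of the saposins, was 0.91 ± 0.08 higher rescaled (adjusted p = 4.15e-06), Ctsc, the dipeptidase cathepsin C, 0.89 ± 0.09 (adjusted p = 1.1e-05) and Lgmn, asparagine endopeptidase, 0.57 ± 0.08 (adjusted p = 0.00011), and each passed per cell too. Ctss, cathepsin S, which makes the last cut of the invariant chain, stood at -0.12 ± 0.08 rescaled (adjusted p = 0.236). Ctsh at -0.59 and Cst3, the inhibitor cystatin C, at -0.77 were the 2 that were lower after rescaling. Per cell, 9 of the 11 were higher and 0 lower, where 84.2% of all genes were higher. For LSD1 status in MZB only Cst3 of the 11 passed (14% of all genes per cell, 5.26% rescaled), at 0.78 ± 0.2 per cell (adjusted p = 0.00518) and 0.45 ± 0.1 rescaled (adjusted p = 0.0251), and Cst3 also stands on the dendritic cell list. In FoB 0 of the 11 passed for LSD1 status.

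Class II turnover and trafficking was covered by a list of 11 genes. Of these 9 were in the table, with 1 higher and 6 lower in wild-type MZB than wild-type FoB after rescaling and a median of -0.30, where 25% of all genes were higher and 24.9% lower. Cd83, which opposes the ubiquitin ligase of class II, stood at -1.03 ± 0.1 (SE, adjusted p = 1.07e-05, limma), and Marchf1, that ligase, at -0.30 ± 0.11 (adjusted p = 0.0414). Arl14ep passed as higher on both scales, at 1.54 ± 0.18 per cell (adjusted p = 8.86e-12) and 0.77 ± 0.13 rescaled (adjusted p = 0.000579). Per cell, 6 of the 9 were higher and 0 lower, where 84.2% of all genes were higher. With LSD1 knockout 1 rose in MZB per cell, Cd83 at 0.66 ± 0.21 (adjusted p = 0.0244), and 0 rescaled. Over all genes 13.3% rose per cell and 3.36% rescaled, so these counts are near the background. In FoB 0 of the 9 passed for LSD1 status.

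Class I presentation genes serve the other branch of antigen presentation. Of 20 on the list 19 were in the table, with 3 higher and 8 lower in wild-type MZB than wild-type FoB after rescaling (25% of all genes were higher and 24.9% lower), and their median was -0.01. Per cell, 18 of the 19 were higher and 0 lower, where 84.2% of all genes were higher. Nlrc5, the class I counterpart of Ciita, stood at 12.7, 15.8 and 15.6 mRNA per cell in wild-type MZB against 4.54 and 3.92 in wild-type FoB. Its log2 change was 1.72 ± 0.19 per cell (SE, adjusted p = 8.59e-13) and 0.88 ± 0.09 rescaled (adjusted p = 1.07e-05), so that the 2 coactivators differed between the cell types in opposite directions after rescaling. H2-Q7, a class Ib molecule, was 0.53 ± 0.1 higher rescaled (adjusted p = 0.00118) and Erap1, the peptide-trimming aminopeptidase of the endoplasmic reticulum, 0.53 ± 0.13 (adjusted p = 0.0049). With LSD1 knockout 4 of the 19 rose in MZB per cell and 1 rescaled, where 13.3% and 3.36% of all genes rose, so the counts are near the background. The gene that rose on both scales was Tap1, a subunit of the peptide transporter, at 29.2 and 36.7 mRNA per cell in knockout MZB against 18.2, 23.4 and 23.3 in wild-type MZB, a change of 0.60 ± 0.2 per cell (adjusted p = 0.035) and 0.27 ± 0.06 rescaled (adjusted p = 0.0381). In FoB 0 of the 19 passed. The lists were chosen with earlier results of these data known.

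**Figure D5:**
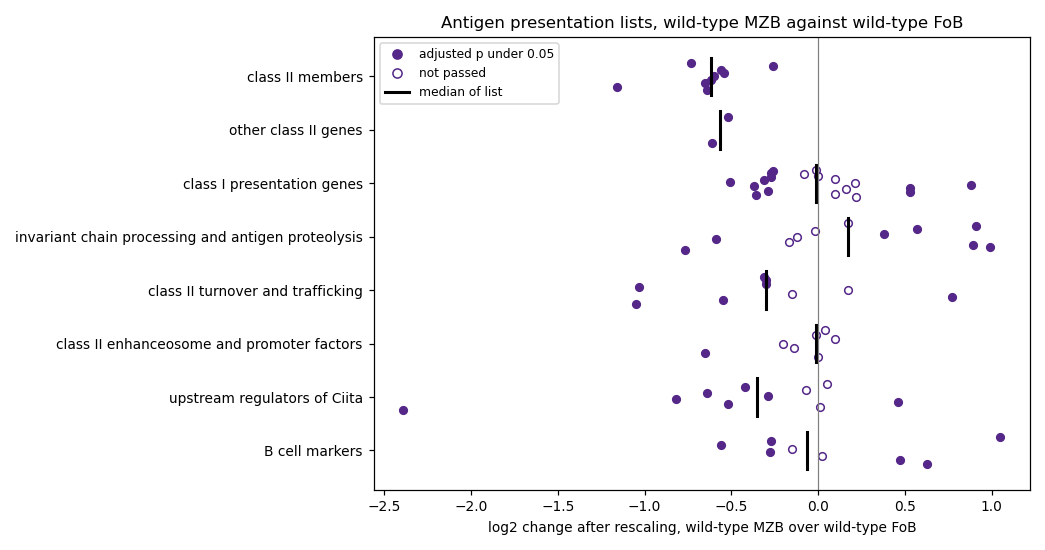
Rescaled log2 change of wild-type MZB over wild-type FoB for the genes of 8 lists, each point a gene, filled where the adjusted p passed 0.05, with the median of each list as a bar. The class II genes lie left of 0 with a median of -0.62, the proteolysis list has its median at 0.17, and Bcl6 is the point at -2.39.

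The class II region of chromosome 17, between H2-Oa and H2-Eb1, holds 14 annotated genes, of which 13 were in the table and 6 are not among the 9. H2-DMb1 stood at -0.61 ± 0.1 in wild-type MZB against wild-type FoB after rescaling (SE, adjusted p = 0.000383, limma) and Brd2, a bromodomain protein gene next to H2-DMa, at -0.51 ± 0.06 (adjusted p = 6.83e-05). The 4 class I genes that lie among them had smaller changes on this scale. Psmb8, an immunoproteasome subunit, stood at -0.31 ± 0.1 (adjusted p = 0.0193) and Tap2 at -0.27 ± 0.08 (adjusted p = 0.0126). Tap1 stood at -0.08 ± 0.06 (adjusted p = 0.335) and Psmb9 at 0.10 ± 0.08 (adjusted p = 0.331). Per cell these 4 had the larger changes and passed as higher, as did 84.2% of all genes. Psmb8 stood at 0.56 ± 0.21 (adjusted p = 0.0127), Tap2 at 0.59 ± 0.2 (adjusted p = 0.00569), Tap1 at 0.79 ± 0.2 (adjusted p = 0.000319) and Psmb9 at 0.97 ± 0.21 (adjusted p = 2.25e-05). H2-DMb1 at 0.26 ± 0.21 (adjusted p = 0.235) and Brd2 at 0.35 ± 0.2 (adjusted p = 0.0903) did not pass per cell. In knockout against wild-type MZB, Tap1 passed on both scales and Psmb9 per cell alone, at 0.58 ± 0.21 (adjusted p = 0.044). H2-Eb2, another class II β gene, averaged 16.9 ± 0.717 mRNA per cell in knockout MZB, 12.4 ± 3.31 in wild-type MZB, 10.8 ± 1.07 in knockout FoB and 9.63 ± 1.61 in wild-type FoB (SD, n = 2, 3, 3 and 2). It stood at -0.52 ± 0.12 in the wild-type comparison after rescaling (adjusted p = 0.00353).

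The profiles most like that of Ciita were sought among 5215 genes with a mean of at least 3 mRNA per cell, by Pearson correlation of rescaled log2 values over the 10 libraries. Since the libraries fall into 2 cell types, r is given as a description of likeness only. The first 5 were Rnf44 (r = 0.996), Sh3bp2 (0.995), Rnf220 (0.994), Dexi (0.994) and St6gal1 (0.994). St6gal1, a sialyltransferase of B cells, averaged 9.01 ± 0.26 in knockout MZB, 7.74 ± 0.4 in wild-type MZB, 21.1 ± 1.74 in knockout FoB and 21.8 ± 0.95 in wild-type FoB, on the rescaled scale. Of the other class II genes, 7 had r from 0.973 (Cd74 and H2-Eb1) to 0.987 (H2-Ob) with Ciita, and H2-Oa had 0.775. For H2-Ab1 the first 5 were Tle5 (0.991), Sun2 (0.986), Prr12 (0.984), Gle1 (0.983) and Ppp2cb (0.983). H2-Aa and H2-Eb1 lay closer to H2-Ab1 than any of these, at 0.996 and 0.993.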

How the data were processed

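Poly(A) RNA of 50000 sorted cells per sample was made into stranded libraries with a KAPA kit, per the labels' protocols. The deposited table holds, as named by the authors, mRNA per cell, a signal value for each of 9690 genes and 10 libraries. STAR and mm10 are named without version, per the submitters' processing notes. The counter, its use of strand, the gene filter and the conversion to mRNA per cell are not stated in those sources. Of the genes, 9681 matched GRCm38.p6 symbols, and 0 columns stayed unassigned.

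Values were whole multiples of a worth per gene and library, so whole reads were recovered for 100% of genes (tolerance 0.01 reads, largest deviation 2.9e-05). The worth followed the inverse of exon length (r = 0.83 on log scales across 9255 genes, which are not independent). The median gene had 184 to 319 reads per library.

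The test was limma's moderated test (limma 3.58.1, R 4.3.3) of log2(value + 0.3), with an intensity trend, 1 coefficient per group over all 10 libraries, two-sided, with Benjamini-Hochberg adjustment over all 9690 genes at 0.05. Changes on this scale understate those of low genes. A floor of 0.3 in 2 libraries removed 0 genes. For rescaling, log ratios of a library to the average of all were trimmed (0.3 of ratios and 0.05 of levels) and their mean taken as its factor (0.62 to 1.76). Errors that a library's genes share enter per-cell p-values as if separate for each gene (prior degrees of freedom 86.9, against 5 rescaled), so these can be too small. The fit was tested on simulated reads for the rescaled comparison of knockout and wild-type MZB only, not for the per-cell scale. Tables and plots were made in Python 3.11.15 (matplotlib 3.10.9, pandas 2.3.3).

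The 9 genes, the lists and the tests were chosen with earlier results of these data known. The text names the 9 genes, up to 4 genes per list and comparison that passed in 1 direction on both scales, the genes of the class II region and the 5 profiles most like Ciita and H2-Ab1. Other genes named with values were chosen after those were seen. Alternatives were pseudocounts of 0.1 and 1, a floor of 1, a median-ratio scale, compared groups alone, no trend, library weights, the replicate number as a block, limma voom on recovered reads and leaving out each library.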

Additional observations from a re-analysis of the deposited data

How the results depend on the processing

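Of 1242 refits of the 90 log2 changes of the 9 genes, 1182 kept direction and side of the threshold, 10 lost the call, 2 gained it and 48 changed sign. None of the 26 changes that passed changed sign in these refits, and no changed sign passed. The count of genes that passed stayed within 1.5 times the value given under every alternative other than leaving out 1 library. Without 1 library it ran from 0 to 3 for wild-type MZB against wild-type FoB per cell (1 with all) and from 5 to 8 for knockout MZB against knockout FoB per cell (8 with all).

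Replicate numbers are shared between groups, but deviations of same-numbered libraries correlated at -0.19 to 0.19, so the numbers do not establish a pairing. With the replicate number as a block, 0 genes passed for LSD1 status in MZB or FoB and for the difference, on both scales. In the block fit 1 passed per cell and 9 rescaled for wild-type MZB against wild-type FoB, and 7 and 8 for knockout MZB against knockout FoB. Over all genes the block moved the calls for LSD1 status in MZB to 528 per cell and 265 rescaled. It lost H2-Aa in knockout MZB against knockout FoB per cell (0.54, adjusted p = 0.0698). In FoB per cell H2-Aa and H2-DMa stood at 0.01 and Cd74 at 0.03 under the block, and rescaled H2-Eb1 at 0.02. H2-DMb2 stood at 0.00 in MZB rescaled and the difference for H2-Ab1 at -0.01 rescaled.

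With library weights, Cd74 stood at 0.04 and Ciita at 0.01 in FoB per cell, H2-Eb1 at 0.02 in FoB rescaled, and H2-Aa and H2-Ab1 at 0.01 in MZB rescaled. Leaving out 1 library moved the FoB change per cell within -0.20 to 0.14 (H2-Aa), -0.24 to 0.07 (H2-Ab1), -0.22 to 0.11 (H2-Eb1), -0.20 to 0.13 (H2-DMa), -0.24 to 0.01 (H2-DMb2), -0.30 to 0.14 (H2-Oa), -0.22 to 0.06 (H2-Ob), -0.15 to 0.13 (Cd74) and -0.26 to 0.10 (Ciita), and rescaled within -0.03 to 0.09 (H2-Aa), -0.08 to 0.04 (H2-Ab1), -0.04 to 0.07 (H2-Eb1), -0.01 to 0.05 (H2-DMa), -0.09 to 0.03 (H2-Oa), -0.08 to 0.02 (H2-Ob), 0.00 to 0.11 (Cd74) and -0.10 to 0.01 (Ciita). It moved the MZB change rescaled within -0.04 to 0.01 (H2-Aa), -0.06 to 0.03 (H2-Ab1) and -0.02 to 0.04 (H2-DMb2), and the difference rescaled within -0.10 to 0.03 (H2-Aa), -0.05 to 0.07 (H2-Ab1) and -0.02 to 0.10 (H2-Eb1). Calls over all genes were also counted under every alternative, not only under leaving out 1 library. For LSD1 status in MZB they ran from 272 to 2791 per cell (1356 given) and from 61 to 1288 rescaled (510). In FoB they ran from 39 to 128 per cell (69) and from 25 to 105 rescaled (57). For the difference they ran from 59 to 744 per cell (227) and from 1 to 595 rescaled (30). With sums of the chains, the mean log2 ratio of the H2-O over the H2-M pair stood at -0.31 in knockout MZB, -0.39 in wild-type MZB, -0.34 in knockout FoB and -0.35 in wild-type FoB, against -0.15, -0.20, -0.28 and -0.28 in the same groups with geometric means. The cause of the other shifts was not tested. The 9 genes rest on 876 reads or more in each library, so the 2 to 3 libraries per group set the precision.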

Other observations

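Within 500 kb on each side of Ciita on chromosome 16 lie 7 genes of the table, Ciita itself included. Dexi, whose RefSeq extent (10530207 to 10543054) overlaps the end of Ciita by 858 bases, stood at 5.05 and 6.36 mRNA per cell in knockout MZB, 4.15, 5.16 and 4.70 in wild-type MZB, 6.65, 5.91 and 4.96 in knockout FoB, and 7.32 and 5.98 in wild-type FoB. Its log2 change in wild-type MZB against wild-type FoB was -1.32 ± 0.1 rescaled (SE, adjusted p = 1.13e-06, limma) and -0.48 ± 0.19 per cell (adjusted p = 0.0167), so it was lower on both scales there. In knockout MZB against knockout FoB the change was -1.23 ± 0.1 rescaled (adjusted p = 3.49e-06) and -0.03 ± 0.19 per cell (adjusted p = 0.872). The use of strand in counting is not stated, so reads of the shared stretch cannot be assigned. Clec16a, 14245 bases from Ciita, stood at -0.09 rescaled in wild-type MZB against wild-type FoB (adjusted p = 0.442). In the same comparison Socs1, the suppressor of cytokine signalling at 252744 bases, stood at 0.56 (adjusted p = 0.0208). The other 3 genes were Litaf at -0.94 (adjusted p = 0.000617), Nubp1 at -0.52 (adjusted p = 0.00325) and Tvp23a at -0.12 (adjusted p = 0.394), all rescaled. Per cell, Nubp1 averaged 6.86 in wild-type MZB and 5.42 in wild-type FoB, the other direction, though its libraries overlapped. Tvp23a, at 1.74 and 1.04, and Clec16a, at 1.831 and 1.075, were also higher in wild-type MZB per cell. Litaf, at 0.69 and 0.93, and Socs1, at 0.80 and 0.22, lay near the pseudocount of 0.3. In knockout against wild-type MZB or FoB, 0 of these 7 genes passed after rescaling. In MZB the smallest adjusted p was 0.341, for Litaf, and in FoB 0.219, for Socs1.

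Relative to H2-Ob within the same library, H2-Oa was higher in MZB than in FoB for both genotypes, with no overlap of libraries and a mean log2 difference of 0.50 in knockout and 0.48 in wild-type cells. The ratio was examined with the values of both genes in view and was not tested.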
